A study of Mus musculus with 15 samples.

Results

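The genes described here encode the proteins of the cytosolic ribosome. They were chosen by symbol: every gene whose symbol was Rpl or Rps followed by a number, with an optional letter or l1-type suffix, together with Rpsa, Rplp0, Rplp1 and Rplp2, leaving out the Rps6k kinases and pseudogene symbols. The rule found 61 of the 19938 genes measured with a probe set of their own, 38 of the large subunit and 23 of the small subunit. They had 217 such probe sets, and the one with the highest mean over all arrays stood for its gene. A further 18 ribosomal protein symbols lay only on probe sets shared by several symbols and entered no test of genes. The rule itself used no measured value, but it was chosen with earlier results of these data known.

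Expression was measured on Affymetrix MoGene 1.0 ST arrays in cells prepared from the livers of E14.5 embryos (days of gestation) of the FVB/NJ mouse strain. Cells were separated with magnetic beads against TER119, a surface antigen of maturing red cell precursors: TER119 positive cells were held on the column, and TER119 negative cells are what depletion left. The groups were TER119 positive cells of Klf3 knockout embryos (KO, 3 arrays) and of wild-type embryos (WT, 4 arrays), and TER119 negative cells of KO (4 arrays) and of WT (4 arrays) embryos. Klf3 encodes a zinc finger repressor of the Krüppel-like family. No drug or other treatment was given in any group, and the missing part of Klf3 in the KO is unstated in the labels, as is whether embryos were pooled, or whether replicates came from separate litters, so the p-values measure only the spread between these arrays, which may be partly technical. The values are log2 expression per probe set, and a difference of 1 is a 2-fold change.

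Every cytosolic ribosome has a small subunit, which reads the mRNA, and a large subunit, which joins amino acids, and each contains one copy of most of its proteins. Ribosomal protein mRNAs begin with a pyrimidine tract through which the mTORC1 pathway sets their translation. Red cell precursors make large amounts of ribosomes early, then shut down ribosome production and degrade most ribosomes as they mature, and in humans loss of a copy of one of several ribosomal protein genes causes Diamond-Blackfan anaemia, a failure of red cell production.

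The labelled populations were checked against marker genes. All 17 erythroid markers measured were higher in TER119 positive cells of either genotype: their mean was 11.6 in KO and 11.6 in WT positive cells, against 8.71 in KO and 8.38 in WT negative cells. The positive cells also carried other RNA. All 22 hepatocyte markers were higher there, with array means between 11.1 and 11.5 in KO and between 10.9 and 11.6 in WT positive cells, against 5.52 to 6.87 in KO and 5.69 to 7.76 in WT negative cells. In WT, 13 of 14 macrophage, 8 of 10 endothelial and 9 of 12 stromal markers were higher in positive cells, and all 12 neutrophil, 10 of 13 progenitor, 6 of 8 mast cell, 7 of 9 T and natural killer cell and 5 of 9 B cell markers were lower. None of the defining markers can be called absent, because the files give no detection calls. The populations therefore differed in several cell types at once, and the part of each in the results below was not tested. A fit with the hepatocyte mean as a covariate cannot separate the hepatocyte part, because that mean nearly follows the population. Its values below are descriptions only. In bulk samples, fewer cells of a type and less RNA per cell cannot be told apart. The array descriptions of positive and of negative cells are written in different forms. The labels name no batch, and if the forms mark one, it cannot be told apart from the population. Within the negative cells, 3 arrays (WT replicates 2 and 4 and KO replicate 4) lay apart from the other 5 on the first principal component, which held 54.2% of the variance. The Klf3 probe set did not separate the genotypes: it read 10.34 to 10.55 in KO and 9.94 to 10.50 in WT positive cells, and 8.02 to 8.74 in KO and 7.94 to 8.80 in WT negative cells. With the deleted part unstated it checks nothing, and KO means "labelled KO" throughout.

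The first comparison asks how ribosomal protein transcripts differ between TER119 positive and TER119 negative fetal liver cells. Most were lower in the positive cells. In KO, 38 of 61 passed the test as lower (62.3%, against 26.5% of all genes tested) and 9 as higher (14.8%, against 22.6%), and 14 did not pass. In WT, 38 were lower (62.3%, against 29.1%) and 8 higher (13.1%, against 23.5%), and 15 did not pass. The median difference over the members was -0.45 in KO, where the median over all genes was -0.06, and -0.42 in WT, where it was -0.09. The calls are from limma with Benjamini-Hochberg adjusted p under 0.05 over all 19938 genes. On the brightest probe set of each gene the falls were mostly small, and dimmer probe sets often gave larger ones, as described below. On the brightest, 14 members passed the test and were at least 2-fold lower in KO (10.3% of all genes), and 14 in WT (9.36%). Rpl7l1 was the 1 member called and at least 2-fold higher, in KO (11.5% of all genes) as in WT (11.2%). Taking genotypes together, 35 members were lower in both (23% of all genes) and 8 were higher in both (20.4%).

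The arrays of the populations were well separated. Taking the median over the members of each array's deviation from the gene's mean, the 3 KO positive arrays lay at -0.28, -0.24 and -0.20 and the 4 WT positive arrays at -0.32, -0.28, -0.22 and -0.19. The KO negative arrays lay at 0.13, 0.18, 0.30 and 0.36 and the WT negative arrays at 0.10, 0.13, 0.26 and 0.29. Every positive array was below every negative one, and within a population the genotypes overlapped. Gene by gene, all positive arrays lay below all negative arrays for 40 members in KO (30.9% of all genes) and 37 in WT (24.7%), and above them for 10 in KO (25.2%) and 7 in WT (20.9%).

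**Figure D1:**
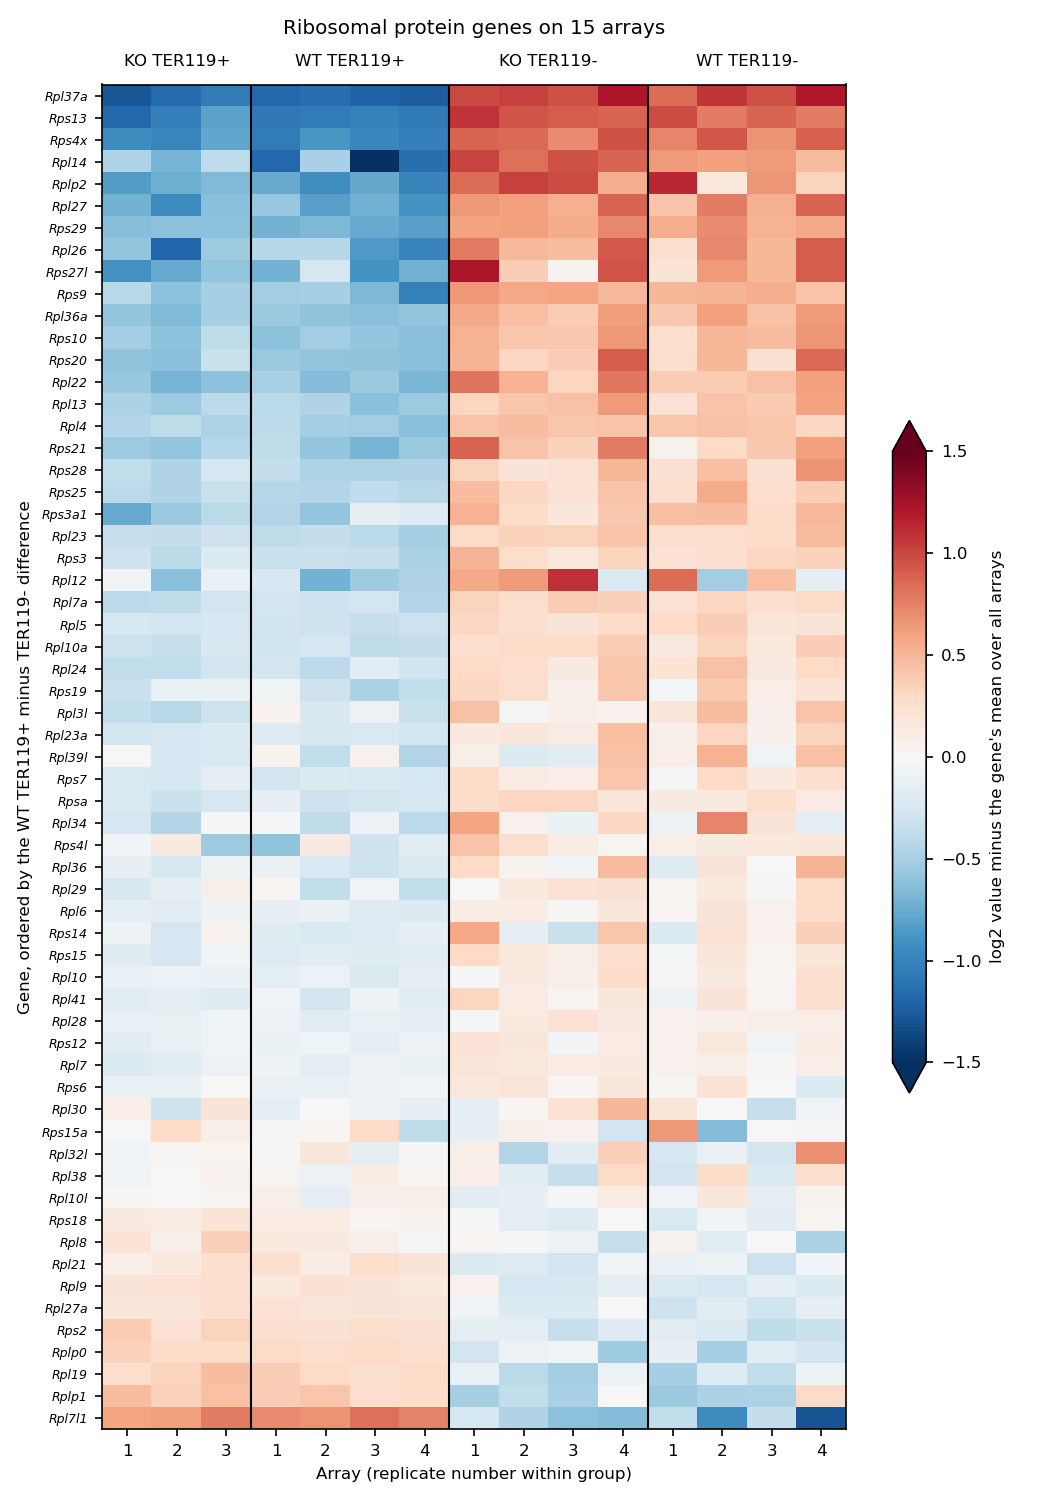
Log2 value of each of the 61 ribosomal protein genes (down the page, ordered by the WT difference between populations) on each of the 15 arrays (across), as the deviation from the gene's mean over all arrays. Most genes are blue (below their mean) on the 7 TER119 positive arrays and red on the 8 TER119 negative arrays, and the few at the bottom run the other way.

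The largest fall on the probe sets used was that of Rpl37a, a zinc-binding protein of the large subunit. The gene has 1 probe set, so no second one could be set beside it. It read 10.43, 10.56 and 10.66 in KO and 10.53, 10.57, 10.49 and 10.47 in WT positive cells, against 12.70, 12.74, 12.66 and 12.93 in KO and 12.55, 12.78, 12.67 and 12.92 in WT negative cells. The populations lay far apart with no overlap, and the genotypes were interleaved. Its difference was -2.21 in KO and -2.21 in WT (SE 0.10, adjusted p = 1.16e-11 in WT), which is 4.63-fold lower in WT positive cells. Rps13, a small-subunit protein, followed: it averaged 9.69 ± 0.19 in KO and 9.64 ± 0.02 in WT positive cells, against 11.64 ± 0.09 in KO and 11.54 ± 0.10 in WT negative cells (SD, n = 3, 4, 4 and 4). No positive array came near a negative one, and the gene was 3.73-fold lower in WT positive cells (difference -1.95 in KO and -1.90 in WT).

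Rps4x, the X-linked copy of a small-subunit protein, read 11.58, 11.55 and 11.74 in KO and 11.48, 11.65, 11.54 and 11.50 in WT positive cells, against 13.40, 13.37, 13.23 and 13.47 in KO and 13.26, 13.46, 13.20 and 13.41 in WT negative cells. Again the populations did not overlap, and the difference was -1.75 in KO and -1.79 in WT (3.46-fold lower in WT positive cells, adjusted p = 7.06e-11). Rpl14 of the large subunit fell by 1.43 in KO and by 1.72 in WT, with its positive arrays more scattered than its negative ones (its array values are given with the KO comparison). Of the remaining 6 members among the 10 with the largest falls, Rpl27 (-1.43 in KO, -1.40 in WT), Rps29 (-1.25, -1.33) and Rps9 (-1.09, -1.17), the last a protein of the mRNA entry side of the small subunit, had within-group SDs well below their differences. Rpl26 (-1.43 in KO, -1.27 in WT) and Rps27l (-1.40, -1.21), a paralogue of Rps27 and in human cells a p53 target, varied more. With the hepatocyte mean as a covariate the value of Rps9 no longer passed the test (-0.81 in KO, -0.94 in WT), nor did that of Rpl14 in KO (-1.69, adjusted p = 0.106). Rplp2 is described with the stalk.

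In KO positive cells 9 members rose, and 8 of them also in WT, the exception being Rps18. Rpl7l1, a paralogue of Rpl7 found on precursors of the large subunit in human cells, read 8.81, 8.83 and 9.005 in KO and 8.93, 8.90, 9.04 and 8.97 in WT positive cells. In negative cells it read 7.96, 7.77, 7.61 and 7.57 in KO and 7.86, 7.28, 7.86 and 6.92 in WT. The populations did not overlap, and the WT negative arrays were spread over almost a whole log2 unit. The difference was 1.16 in KO and 1.48 in WT (2.79-fold higher in WT positive cells, adjusted p = 1.30e-06). The other 7 rose by less than 2-fold. Rps2, a small-subunit protein at the mRNA entry, averaged 13.04 ± 0.08 in KO and 12.97 ± 0.02 in WT positive cells, against 12.53 ± 0.10 in KO and 12.46 ± 0.10 in WT negative cells (difference 0.51 in each genotype, adjusted p = 5.99e-05 in WT). Several of these smaller rises depended on how the values were made. Rpl19 (0.63 in KO, 0.59 in WT), Rpl27a (0.32, 0.42) and Rpl9 (0.37, 0.38) were below 0 in both genotypes when the dimmest probe set of the gene was used. With the mean of the gene's probe sets, Rpl27a (0.07 in KO, 0.08 in WT) and Rpl9 (0.05 in KO, 0.03 in WT) did not pass the test. Nor did Rpl9 after repeated quantile normalization (0.04 in KO, 0.06 in WT). The brightest probe set of each gene was chosen anew there, so another probe set of Rpl9 may have stood for it. Values were below 0 for Rpl19 and Rplp1 with the hepatocyte mean as a covariate, and for Rpl27a in KO. With that covariate Rps2 (0.73 in KO, 0.70 in WT) and Rpl21 (0.29 in KO, 0.29 in WT, against 0.34 in each without it) stayed above 0 but did not pass the test. Centring arrays on their 75th percentile also left values above 0 that did not pass: Rpl27a was then 0.30 in KO and 0.33 in WT, Rpl9 0.35 in KO and 0.29 in WT, and Rpl21 0.33 in KO and 0.25 in WT. Rplp1 did not pass in WT under that centring (0.54) or in KO on its dimmest probe set (0.35). Rpl7l1 and Rplp0 passed under each of these settings.

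**Figure D2:**
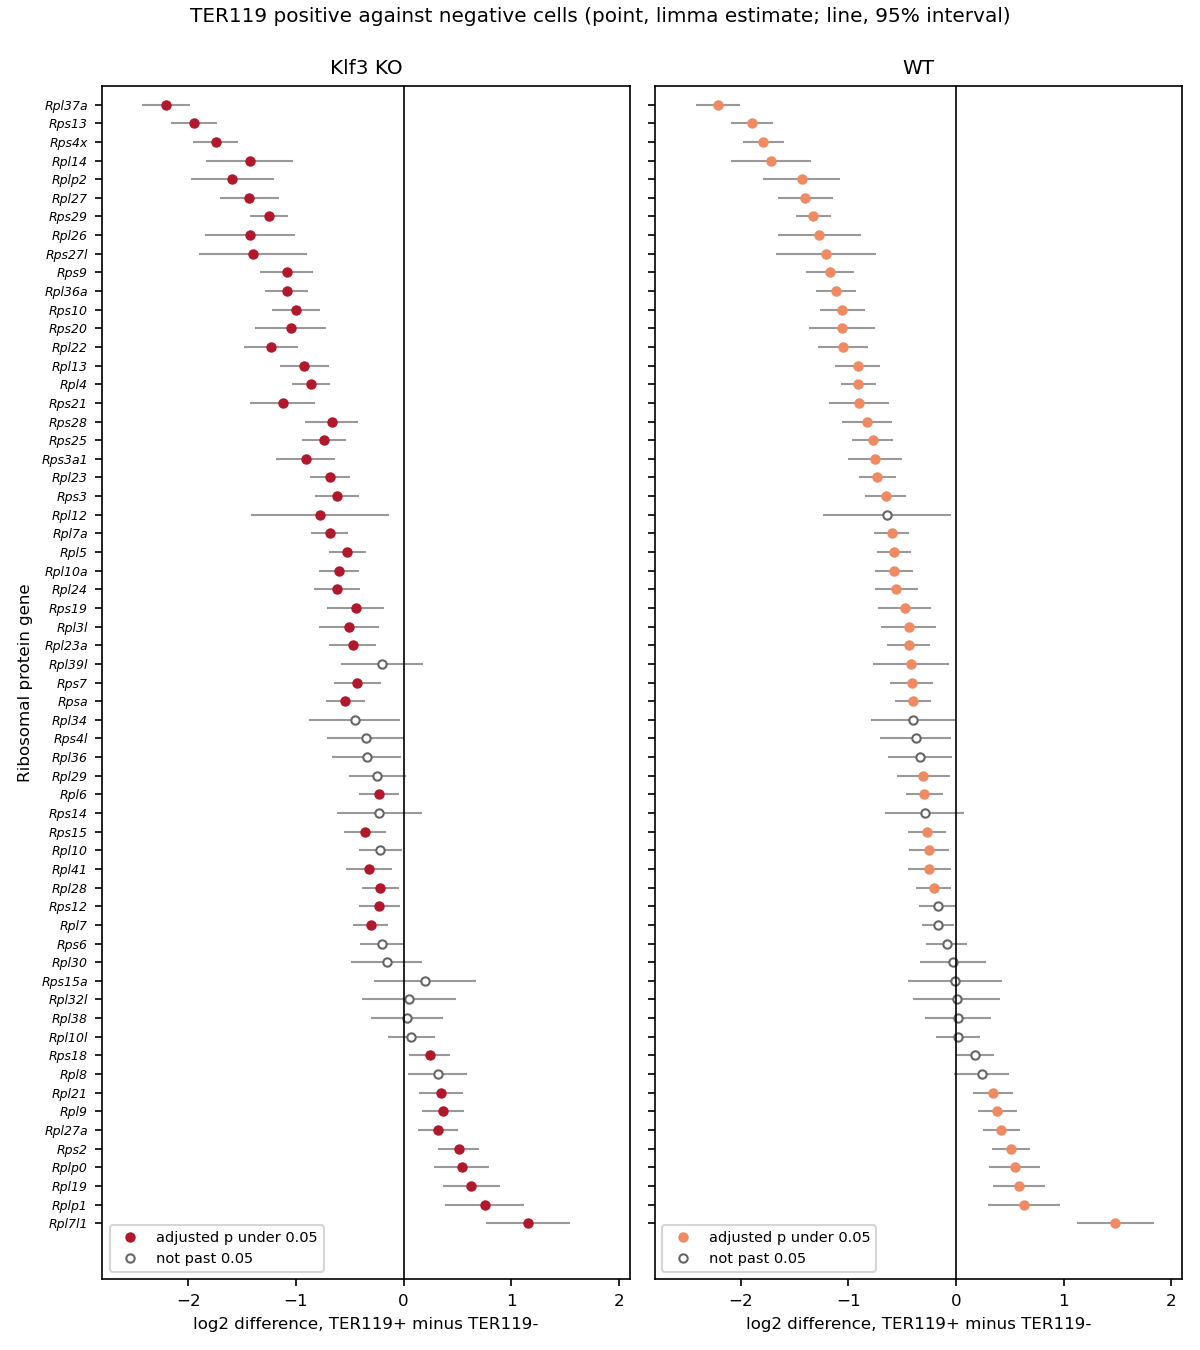
Difference in log2 value between TER119 positive and TER119 negative cells for each member in KO (left) and WT (right), with 95% intervals. Filled points have an adjusted p under 0.05. The order of the genes is that of WT in both panels, with Rpl37a at -2.21 at the top and Rpl7l1 at 1.48 in WT at the bottom.

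The start regions of the members at the extremes are shown here because a pyrimidine tract at the start is the sequence feature that defines these mRNAs as a class. Each window runs from 40 bases before to 16 bases from the annotated start (RefSeq promoters, build GRCm38.p6), written 5′ to 3′ on the gene's strand, with the longest run of C and T in capitals (the first of equal runs). The first 4 genes had the largest falls with an entry in the promoter table and the other 4 the largest rises, in WT.
Rpl37a (chr1:72711220-72711275, plus strand): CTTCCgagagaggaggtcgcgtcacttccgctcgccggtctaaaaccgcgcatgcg
Rps13 (chr7:116334175-116334230, minus strand): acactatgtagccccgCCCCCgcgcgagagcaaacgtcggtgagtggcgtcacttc
Rps4x (chrX:102189376-102189431, minus strand): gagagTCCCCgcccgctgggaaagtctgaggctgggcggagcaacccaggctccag
Rpl14 (chr9:120571477-120571532, plus strand): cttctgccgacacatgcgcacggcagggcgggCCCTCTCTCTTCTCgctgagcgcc
Rpl7l1 (chr17:46782641-46782696, minus strand): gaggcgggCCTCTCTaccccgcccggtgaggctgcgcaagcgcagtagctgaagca
Rpl19 (chr11:98026670-98026725, plus strand): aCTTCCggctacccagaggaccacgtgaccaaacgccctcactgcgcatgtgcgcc
Rplp0 (chr5:115559427-115559482, plus strand): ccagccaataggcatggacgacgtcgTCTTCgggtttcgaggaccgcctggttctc
Rps2 (chr17:24720023-24720078, plus strand): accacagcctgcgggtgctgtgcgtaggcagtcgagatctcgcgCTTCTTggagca

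Of the 8, only Rpl14 had a long tract across its annotated start, 14 bases from position -8 to 6 (counted with the start as 1 and no 0). In the others the longest run was 5 to 7 bases. Annotated starts can differ from the base at which transcription begins, so a short run says nothing about the mRNA's own first bases. Over the 49 members with an entry, 22 had a run of at least 8 pyrimidines in this window (44.9%, against 22.9% of 27025 genes of the table). Among them, 14 of 34 members lower in WT positive cells had such a run, 1 of 6 higher ones, and 7 of 9 that did not pass the test. Over the full 300 bases and on both strands, the letters CCGGAAG, the core bound by ETS factors, occurred in 18 of 49 members (36.7%, against 9.11% of all promoters of that length). GGGCGG, a GC box, occurred in 28 (57.1%, against 35.9%), and CACCC, the box bound by Krüppel-like factors, in 28 (57.1%, against 56.8%). The motifs may share end bases where they lie side by side. A match is a description of letters, not a binding site.

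The proteins of the stalk, which calls elongation factors to the large subunit, did not move together. Rplp0, its base, read 13.16, 13.11 and 13.08 in KO and 13.12, 13.08, 13.10 and 13.06 in WT positive cells, against 12.54, 12.72, 12.77 and 12.28 in KO and 12.70, 12.31, 12.65 and 12.52 in WT negative cells. The populations did not overlap, and Rplp0 was 0.54 higher in each genotype (adjusted p = 0.000534 in WT). Rplp1 was 0.75 higher in KO and 0.63 higher in WT positive cells (adjusted p = 0.00302 in WT). Its positive arrays ranged from 11.94 to 12.05 in KO and 11.85 to 12.00 in WT, against 11.09 to 11.60 in KO and 11.04 to 11.87 in WT negative cells, so that in WT 1 negative array reached into the positive range. Rplp2, which pairs with Rplp1 on the stalk, went the other way: it averaged 8.66 ± 0.09 in KO and 8.54 ± 0.11 in WT positive cells, against 10.25 ± 0.22 in KO and 9.98 ± 0.43 in WT negative cells (SD, n = 3, 4, 4 and 4). That is a difference of -1.59 in KO and -1.43 in WT, with no overlap, although with the hepatocyte mean as a covariate it was 0.16 in KO and 0.05 in WT. Rpsa, a small-subunit protein also known as the laminin receptor precursor, was 0.54 lower in KO and 0.40 lower in WT on its brightest probe set, but its probe sets disagreed.

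**Figure D3:**
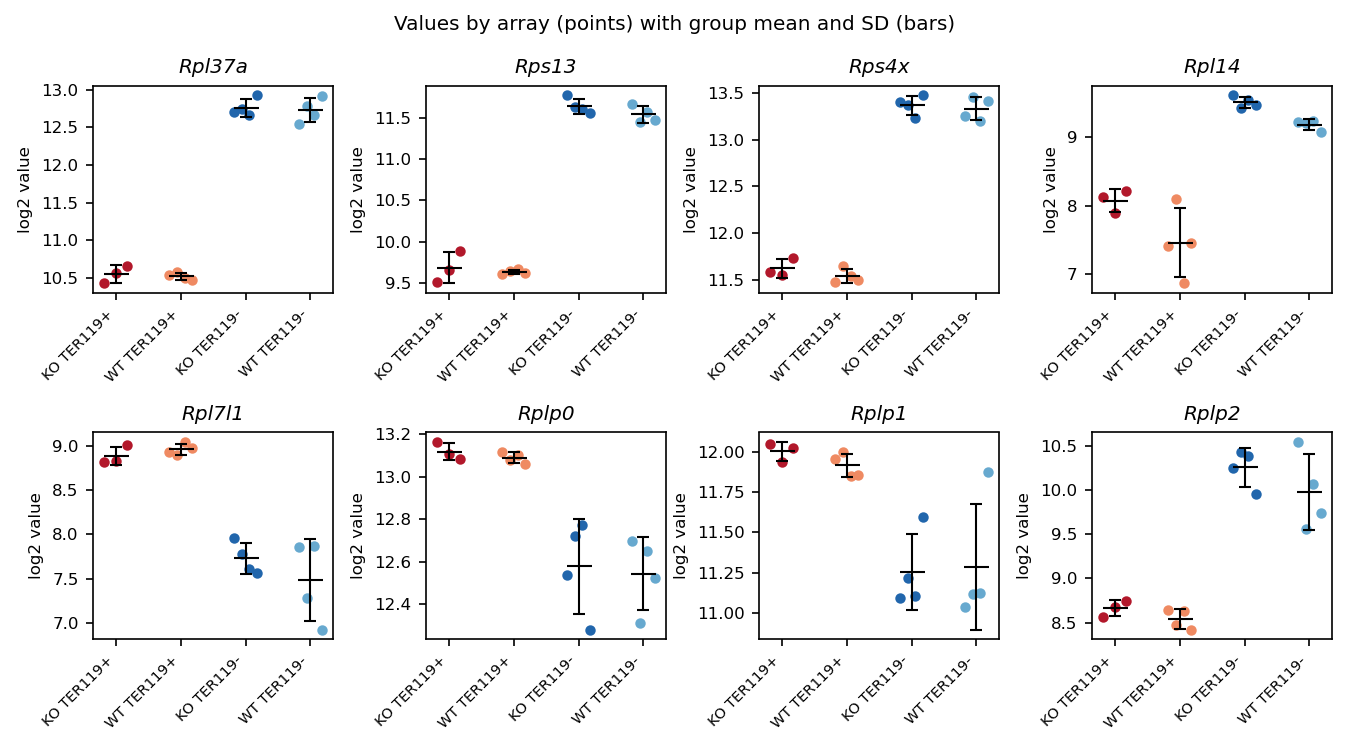
Log2 value on each array (points) with the group mean and SD (black) for 8 members, with KO and WT TER119 positive cells left of KO and WT TER119 negative cells. Rpl37a, Rps13, Rps4x, Rpl14 and Rplp2 are lower in positive cells, and Rpl7l1, Rplp0 and Rplp1 are higher; the vertical axes differ and do not start at 0.

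Several members are paralogues of others. Of the 11 named for that reason, 6 were lower and 1 higher in KO positive cells, and 7 lower and 1 higher in WT (29.1% and 23.5% of all genes in WT), the lower ones including the dim Rpl3l and, in WT, Rpl39l. Rpl7l1 rose while Rpl7 itself did not pass the test in WT (difference -0.31 in KO, -0.17 in WT, adjusted p = 0.0596 in WT), although all 4 WT positive arrays of Rpl7 lay below the WT negative ones. Rps4x fell while its paralogue Rps4l did not pass the test in either genotype (-0.35 in KO, -0.37 in WT). Rpl22, known for its role in T cell development, was lower (-1.23 in KO, -1.05 in WT), as was Rpl36a on the X chromosome (-1.08 in KO, -1.12 in WT). Rpl10, a late-joining protein of the large subunit, differed by -0.22 in KO (adjusted p = 0.0657) and fell by 0.25 in WT (adjusted p = 0.0230). The paralogues known from muscle (Rpl3l) and testis (Rpl10l and Rpl39l) were dim, with means between 3.87 and 5.04 in every group. At that level RMA values respond little to RNA, and without detection calls their small differences cannot be told from background.

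Of the members, 10 are known to be mutated in Diamond-Blackfan anaemia in humans, and 9 of the 10 were lower in positive cells in each genotype, where 62.3% of all members and 26.5% (KO) or 29.1% (WT) of all genes were. Whether these genes differ from the other members was not tested. Rps19, the gene most often mutated, read 8.24, 8.46 and 8.48 in KO and 8.51, 8.27, 8.09 and 8.20 in WT positive cells. In negative cells it read 8.88, 8.84, 8.65 and 8.98 in KO and 8.56, 8.97, 8.67 and 8.78 in WT. The WT ranges came close without meeting, and the difference was -0.45 in KO and -0.48 in WT (adjusted p = 0.00227 in WT). Rpl5, which with Rpl11 and 5S RNA can bind MDM2, differed by -0.53 in KO and -0.58 in WT, and Rps7 by -0.43 and -0.41. Larger falls were those of Rps10 (-1.06 in WT), Rps20 (-1.05 in KO, -1.06 in WT) and Rps28 (-0.67 in KO, -0.83 in WT), besides Rps29, Rpl26 and Rpl27 above. Rps15a did not pass the test (0.20 in KO, -0.01 in WT) and was among the less even genes, with WT negative arrays between 9.54 and 10.83.

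Both subunits took part. In KO, 17 of 23 small-subunit members were lower and 2 higher, with a median of -0.62, and 21 of 38 large-subunit members were lower and 7 higher, with a median of -0.33. In WT the counts were 16 lower and 1 higher with a median of -0.65 for the small subunit, and 22 lower and 7 higher with a median of -0.37 for the large one. Of all genes, 26.5% were lower and 22.6% higher in KO, and 29.1% and 23.5% in WT; the large subunit's share of higher members, 18.4% in each genotype, lay near these. The difference between subunits was not tested. Because these genes are among the brightest on the array, the members with a mean of at least 11 were set beside the other genes at that level. In WT, 26 of 41 such members were lower and 7 higher (median -0.40), while of 195 other genes 84 were lower and 75 higher (median -0.12). The other bright genes thus moved in both directions in similar numbers.

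The size of a fall depended on the probe set. In the 38 genes with several distinct probe sets, the WT difference had a median of -0.39 on the brightest probe set and -0.97 on the dimmest, and the dimmest gave the lower value in 30 of 38, in KO as in WT. Rpl36 differed by -0.34 on its brightest probe set and -2.03 on its dimmest, and Rpl7a, whose probe sets were all lower, by -0.60 and -2.12. Rps2 rose by 0.51 on the brightest and by 1.71 on the dimmest. All distinct probe sets of the gene were lower for 20 of the 38 and all were higher for 3, and 3 genes had probe sets called in opposite directions. These 3, named after their values were seen, were Rpl27a (0.42 on the brightest, -0.81 on the dimmest), Rpl9 (0.38 and -0.52) and Rpsa (-0.40 on the brightest, 1.32 on another). Ribosomal protein genes have many processed pseudogenes, and probe sets that share letters with such copies may read more than one locus. The brightest probe set, which stood for its gene, may then read such a copy rather than the gene itself. Which locus each probe set reads was not tested. Of the 205 distinct probe sets of the members, 128 were lower, 30 higher and 47 not called in WT. Of the 239 probe sets with several symbols that include a ribosomal protein gene, 124 were lower, 65 higher and 50 not called in WT, with a median of -0.30. The 2 sets of probe sets were not tested against each other.

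**Figure D4:**
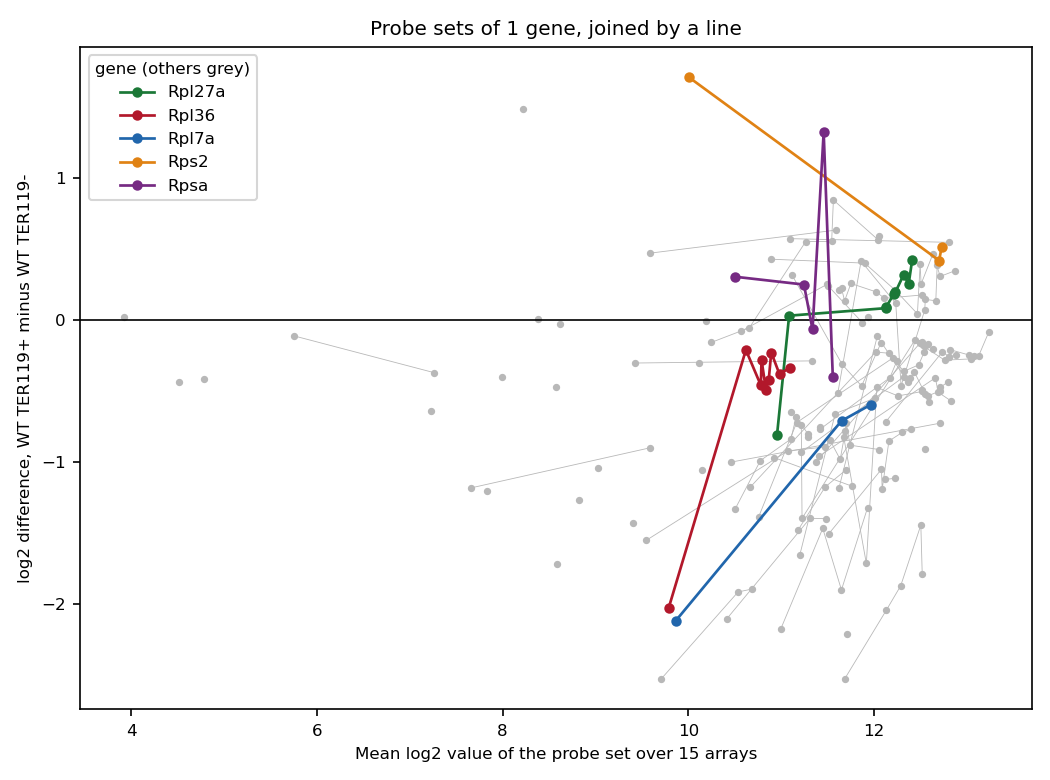
WT difference between TER119 positive and negative cells (vertical) against the mean log2 value over all arrays (horizontal) for every distinct probe set of the 61 genes, with probe sets of the same gene joined. The dimmer ends of the lines lie lower in most genes, as for Rpl36 (-2.03 at its dimmest) and Rpl7a (-2.12), and higher in Rps2 (1.71).

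The second comparison asks whether the absence of Klf3 alters these transcripts. No member passed the test in KO against WT. In TER119 positive cells 0 of 61 were called (1.02% of all genes) and 1 had an unadjusted p under 0.05 (5.33%). In TER119 negative cells 0 of 61 were called (0.0853%) and 0 had an unadjusted p under 0.05 (7.56%). The difference of the KO effect between the populations was called for 0 members (0.436%), with 0 at an unadjusted p under 0.05 (4.27%). The intervals were narrow for most: the 95% interval of 57 of 61 members lay within a 1.5-fold change either way in positive cells (84.7% of all genes), and of 57 in negative cells (83.8%). For the difference of the KO effects it did so for 48 (58.9%). For those members a larger effect of KO lies outside the interval, and for the others it was not measured well enough to say.

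The member with the smallest p was Rpl14 in positive cells. It read 8.13, 7.89 and 8.21 in KO, against 7.42, 8.10, 6.87 and 7.45 in WT positive cells. The WT arrays were scattered and their highest lay among the KO arrays. The difference was 0.62 (SE 0.19, 95% interval 0.21 to 1.02, adjusted p = 0.279), and without WT replicate 2, the highest of the WT arrays, it was 0.83 (adjusted p = 0.00599). Over the other alternatives the adjusted p ran between 0.0912 and 0.814. In negative cells Rpl14 read 9.61, 9.42, 9.54 and 9.46 in KO, against 9.22, 9.21, 9.23 and 9.07 in WT. Here the genotypes did not overlap, and the difference was 0.33 (SE 0.18, adjusted p = 0.655). The difference between the populations, 0.29 (SE 0.26, 95% interval -0.26 to 0.84, adjusted p = 0.999), did not pass the test, and its interval included 0. Rpl14 has 1 probe set, so no second one could be set beside it.

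The other members with the smallest p lay close to 0. In positive cells these were Rps9 (0.17), Rps29 (0.11), Rps19 (0.12) and Rpl4 (0.09) above 0 and Rps3a1 (-0.24), Rpl3l (-0.22), Rpl7 (-0.05), Rpl24 (-0.06) and Rpl26 (-0.09) below it, with adjusted p between 0.279 and 1 over all 61. In negative cells they were Rps21 (0.26), Rplp2 (0.28), Rpl7l1 (0.25) and Rpl30 (0.21), and Rpl39l (-0.21), Rpl3l (-0.15), Rps28 (-0.09), Rps3a1 (-0.08) and Rpl10l (-0.06). The smallest p for the difference of the KO effects between populations (positive minus negative) belonged to Rpl14, Rps28 (0.16), Rpl39l (0.22), Rps15a (0.21) and Rps29 (0.07) above 0, and to Rpl7 (-0.14), Rpl7l1 (-0.32), Rpsa (-0.14), Rpl22 (-0.18) and Rps21 (-0.22) below it. The arrays of KO and WT did not overlap for 3 members in positive cells, all higher in KO (5.29% of all genes), with 0 lower (4.81%), and for 2 in negative cells, both higher in KO (1.22%), with 0 lower (1.41%). Named after their values were seen, the 3 were Rpl23 (0.08), Rpl5 (0.05) and Rps29, and the 2 were Rpl14 and Rpl7 (0.09). These differences were below 0.12 on the log2 scale for all but Rpl14. The median over the members was 0.03 in positive cells, where that of all genes was -0.01, and 0.04 in negative cells, where that of all genes was -0.02. Centred on the 75th percentile of each array, the medians were -0.03 and -0.10. In negative cells the sexes of the embryos were not balanced. The female transcript Xist read over 10 there on 3 of 4 KO and 0 of 4 WT arrays. In positive cells it did so on 2 of 3 KO and 2 of 4 WT arrays. Sex was thus also unbalanced between the WT populations, whose differences include X-linked members. With the mean of the Y-linked genes as a covariate, 0 members were called in KO against WT in either population. In that fit all 66 values of named members, over all contrasts, kept their direction and side of the threshold.

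**Figure D5:**
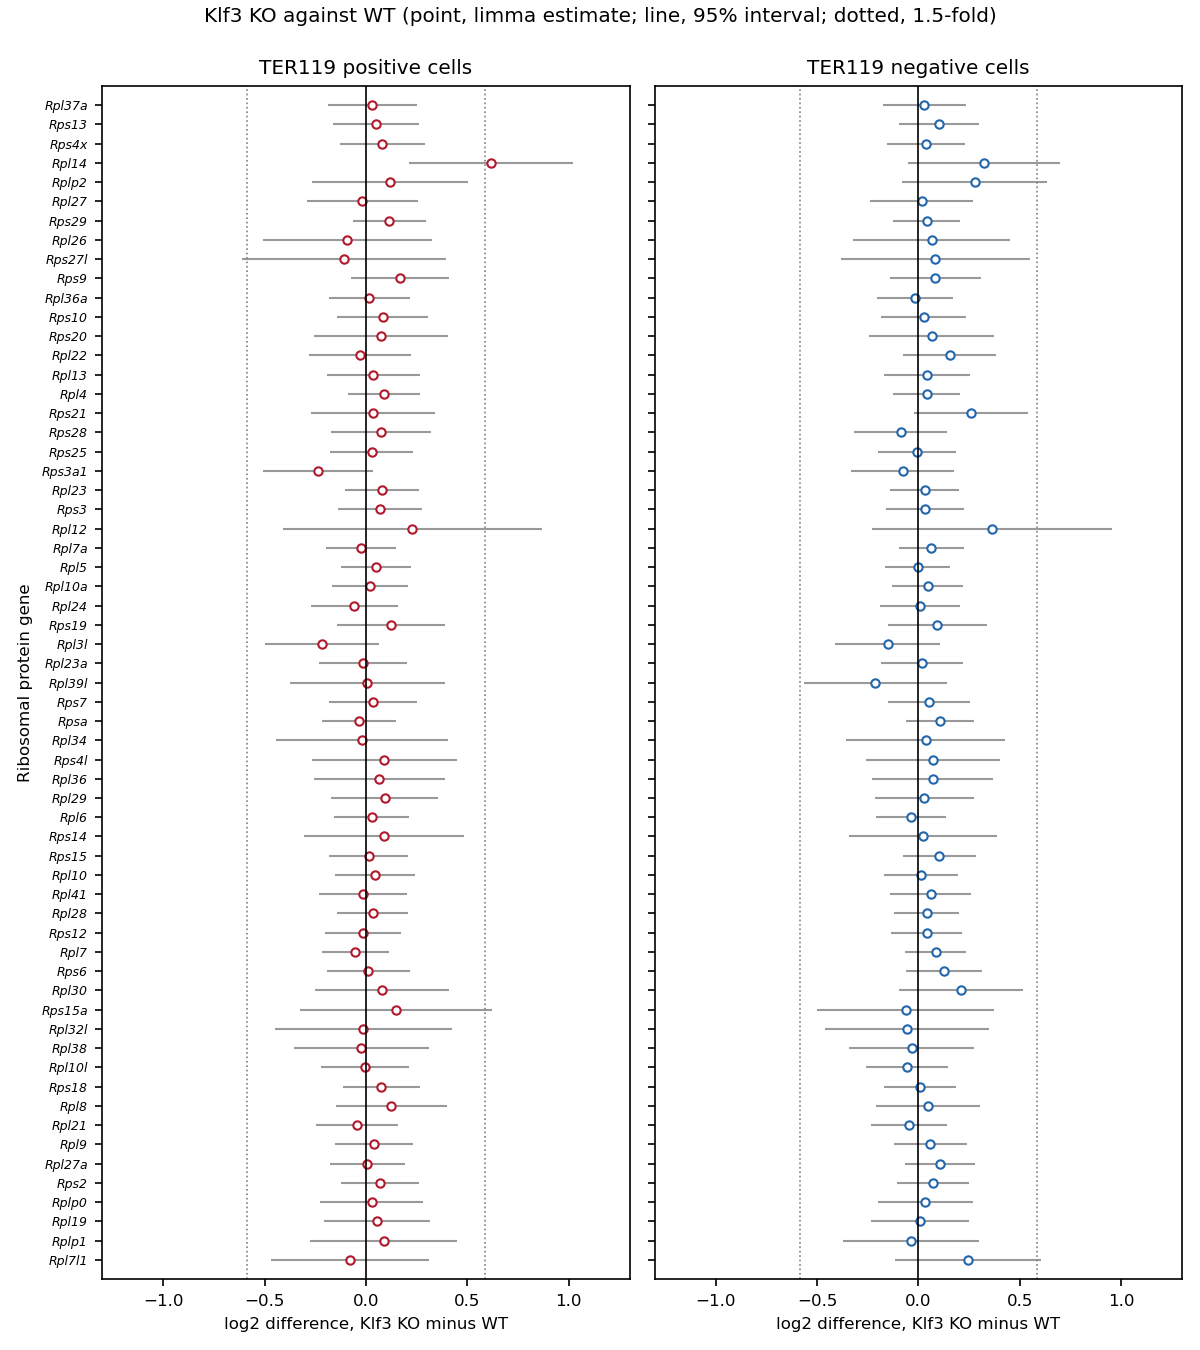
Difference in log2 value between KO and WT for each member in TER119 positive (left) and TER119 negative (right) cells, with 95% intervals; no point passed the test. Dotted lines mark a 1.5-fold change. All members except Rpl14 (0.62 in positive cells) have point estimates inside them.

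A few members varied between arrays of the same group. The largest mean within-group SDs belonged to Rpl12, Rps27l and Rpl26. Rpl12, a protein at the stalk base, read 7.19, 6.59 and 7.12 in KO and 6.99, 6.52, 6.69 and 6.77 in WT positive cells. In negative cells it read 7.80, 7.86, 8.32 and 7.00 in KO and 8.07, 6.71, 7.67 and 7.08 in WT. The 3 lowest negative values were those of WT replicates 2 and 4 and KO replicate 4, the arrays that lay apart, and the same 3 were lowest for Rplp2. Rpl12 fell by 0.78 in KO (adjusted p = 0.0420) and differed by -0.64 in WT (adjusted p = 0.0641). Without those 3 arrays together, 39 members were lower and 10 higher in KO, with a median of -0.41, and 31 were lower and 9 higher in WT, with a median of -0.34.

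Other genes of ribosome production were examined as lists, whose counts stand against 29.1% of all genes lower and 23.5% higher in WT. In WT positive cells, 39 of 52 nucleolar rRNA processing and assembly factors were lower and 4 higher (median -1.06), among them Rpf2, which brings in the 5S particle (-3.28, SE 0.13), and the small-subunit processome protein Wdr75 (-2.58). The higher ones included Sbds (0.84) and Eif6 (0.66), which act late in the making of the large subunit. Of 12 RNA polymerase I genes, 7 were lower and 2 higher (median -0.75): Polr1d, a subunit shared with polymerase III, differed by -3.80 and Taf1d by -3.44, while Ubtf rose by 1.10 and Taf1c by 0.46. Of 77 mitochondrial ribosomal proteins, 54 were lower and 7 higher (median -0.73), with Mrpl11 at -2.62 and Mrpl21 at -2.12, and Mrpl38 at 2.04 and Mrps15 at 0.97. Each of these medians lay further below 0 than the -0.09 of all genes.

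Translation factors and related mRNAs with a start tract moved similarly: 11 of 17 were lower and 2 higher (median -0.85), with Eef1b2 at -1.84 and Eif4b at -1.78, while Pabpc1, the poly(A)-binding protein, rose by 2.01 and Eef2 by 0.45. Fau, which encodes a small-subunit protein as a fusion and lies outside the symbol rule, averaged 10.19 ± 0.13 in KO and 10.05 ± 0.09 in WT positive cells, against 11.30 ± 0.16 in KO and 11.28 ± 0.27 in WT negative cells. It fell by 1.11 in KO and by 1.23 in WT. Genes of ribosome rescue and turnover were divided, with 6 of 13 higher and 4 lower (median 0.34); the share lower was near that of all genes. Ube2o, the ubiquitin ligase that removes ribosomal proteins from maturing red cells, rose by 5.66 (SE 0.15, adjusted p = 5.56e-14), and Rnf10, a ligase of small-subunit proteins, by 4.28, while Nemf differed by -1.40 and Ascc3 by -0.95. Of 7 chaperones of ribosomal proteins, 4 were lower and 2 higher (median -0.51): Ltv1 differed by -2.66 and Bccip by -1.59, while Aamp rose by 1.75 and Grwd1 by 0.79. The Diamond-Blackfan list, which adds Gata1, Tsr2 and Heatr3 to the 10 members above, had 10 of 13 lower and 1 higher (median -0.58), the higher one being the erythroid factor Gata1 (2.02). A further 10 of the 23 genes listed had no probe set of their own and were not tested. Of 15 p53 targets, 6 were higher, with Plk2 at 1.71 and Phlda3 at 1.45, and 4 lower, with Ccng1 at -2.16 and Eda2r at -0.33 (median 0.23). In KO against WT, 0 genes of these lists were called in either population.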

How the data were processed

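The deposited table holds log2 expression values of 35399 probe sets on 15 arrays, made by the authors with RMA and Partek, per the submitters' processing notes (versions: not given in the sources used here). The RMA method makes arrays share a distribution, so a difference is relative to the other RNA on the array, and compresses dim signals. Per the labels' protocols, TRI-Reagent and then RNeasy columns with DNase I gave the RNA, and an Affymetrix IVT Express kit labelled it. The platform's gene table listed 23410 probe sets, 21789 with 1 symbol, 1621 with several, and left 11989 unnamed here. Of those with 1 symbol, 21698 matched by Entrez identifier to RefSeq (GRCm38.p6), which changed 0 symbols. The brightest probe set stood for each of 19938 genes.

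Groups and replicate numbers came from the sample titles. A mean per group was fitted to all genes with limma 3.58.1 in R 4.3.3 (lmFit, eBayes; 11 residual degrees of freedom), with 5 contrasts: TER119 positive minus negative in KO and in WT, KO minus WT in each population, and the difference of the KO effects. P-values are two-sided and Benjamini-Hochberg adjusted over all genes, with a threshold of 0.05. There was no filter on dim genes. The fit was tested on simulated data. Errors of differences are SEs, and of levels SDs; the number of arrays limits the precision. No array held the same values as another of its group.

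Named genes were, by rule, up to 10 largest rises and falls among those called in WT between populations; the 5 smallest p each way in the KO contrasts; paralogues; Diamond-Blackfan members; the stalk and Rpsa; the 3 most variable members; and of other lists the 2 smallest p each way. Of the sex-linked genes, 4 were measured, and 1 was called, lower, in WT between populations; of 8 megakaryocyte markers 2 were higher and 1 lower there. The members and lists were chosen with earlier results of these data known. Alternatives were other centring, normalization, probe set rules, filters, weights, covariates and samples left out.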

Additional observations from a re-analysis of the deposited data

Results flagged for a closer look

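For the 40 members named by rule and for the members' median deviation, the highest or lowest array of each group of 4 was compared with the others by the gap to its neighbour over the range (Dixon's 95% values), 123 tests in all. Chance flags about 1 in 20 groups, and the 6 values flagged here are close to that share. In WT TER119 negative cells, replicate 4 read 11.87 for Rplp1 (the others 11.04 to 11.12) and 9.07 for Rpl14 (9.21 to 9.23), and replicate 3 read 11.7 for Rps3a1 (11.87 to 11.91) and 11.83 for Rpsa (11.68 to 11.70). In WT TER119 positive cells, replicate 1 read 10.94 for Rps28 (10.83 to 10.84), and replicate 2 read 3.77 for the dim Rpl10l, where the others lay at 4.00.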

How the results depend on the processing

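With 3 or 4 arrays a group and no detection calls, effects of KO smaller than the intervals given above were not detectable, and values of dim genes carry little information. Counts and medians of members for TER119 positive minus negative cells stayed below 0 on balance in all 14 alternatives. The members' median moved to -0.56 in KO (arrays centred on the median), -0.52 in WT (75th percentile), -0.57 in KO and -0.54 in WT (mean of a gene's probe sets), -0.86 and -0.81 (dimmest probe set, chosen after seeing the data) and -0.81 and -0.73 (hepatocyte mean as a covariate, which nearly follows the population and so widens the errors). Higher members numbered 5 in KO and 4 in WT with the 75th percentile, 5 in KO with the dimmest probe set and 3 in each genotype with the hepatocyte covariate, which left 20 lower in KO and 23 in WT. Centring on the 75th percentile moved the median of all genes by -0.14 in KO minus WT in TER119 negative cells, and that of the members there to -0.10; centring on the median moved the median of all genes by -0.10 between populations in KO. Such centring moves every gene of an array alike. Leaving out 1 array in turn gave 34 to 41 lower and 8 to 10 higher members in KO, 34 to 40 and 8 to 9 in WT, and 0 to 1 higher in KO minus WT in TER119 positive cells (Rpl14). Between populations, single values turned for Rpl19 (dimmest probe set -0.16 in KO and -0.16 in WT, hepatocyte covariate -0.30 and -0.21), Rpl27a (-0.86 and -0.81 with the dimmest, -0.048 in KO with the covariate), Rpl9 (-0.49 and -0.52 with the dimmest), Rplp1 (-0.70 and -0.60 with the covariate) and Rplp2 (0.161 and 0.0541 with the covariate). In KO minus WT, values close to 0 turned for Rpl26 in positive cells (-0.213 to 0.115 with 1 array left out, above 0 without KO replicate 2), Rpl7 (0.0138 with the dimmest), Rps28 in negative cells (0.0084 with the covariate, 0.0147 without the 3 negative arrays that lay apart, -0.151 to 0.0051 with 1 array left out, above 0 without WT replicate 4), and without those 3 arrays for Rpl3l (0.0293) and Rpl7l1 (-0.0797), both in negative cells. The difference of the KO effects turned for Rpl7l1 (0.0021 without those 3 arrays) and Rps15a (-0.008 to 0.424 with 1 array left out, below 0 without WT negative replicate 1). Between populations, 503 of 522 values of named members in KO and 504 of 522 in WT kept their direction and their side of the threshold, and 12 in each lost the call. The causes were not tested. Same-numbered arrays correlated between -0.38 and 0.65 in their deviations over 21 pairs, 6 of them above 0.1. Within a population, 3 of 14 arrays correlated best with their own number in the other genotype. On the replicate 1 arrays Xist read 3.69 in KO positive and 10.50 in KO negative cells. In WT it read 10.95 in positive and 5.44 in negative cells, so that number does not mark the same embryo in both populations. With the replicate block, 35 members were lower and 9 higher in KO, 39 and 9 in WT, and 0 were called in KO minus WT.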
